A study of Homo sapiens with 4 samples.

Results

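Nuclear-encoded oxidative phosphorylation (OXPHOS) genes were represented by 91 of the 28775 promoters in an ATAC-seq count table. They were chosen by gene symbol alone: the NDUFA, NDUFAB, NDUFB, NDUFC, NDUFS and NDUFV genes of complex I, SDHA to SDHD of complex II, symbols starting with UQCR and CYC1 of complex III, COX4 to COX8 genes of complex IV, and symbols starting with ATP5F, ATP5M, ATP5P or ATP5IF of complex V. Complex I had 37 promoters, complex II 4, complex III 13, complex IV 17 and complex V 20. Of these, 87 belonged to protein-coding genes, and the other 4 were the non-coding rows UQCRB-AS1 and UQCRFS1-DT, the pseudogene UQCRBP1 and the readthrough row ATP5MF-PTCD1. All 91 passed the filter on low counts that left 27647 promoters for testing.

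To ask whether loss of MORC2, a nuclear ATPase with a role in epigenetic silencing, alters accessibility, the Tn5 transposase was used to tag open DNA in HEK293T cells, a human embryonic kidney line. There were 2 wild-type (WT) and 2 MORC2 knockout (KO) libraries. The knockouts were bulk pools rather than clones, made by electroporating Cas9 protein, into cells that the study's methods call HEK293, with sgRNA 1 for KO replicate 1 and sgRNA 2 for KO replicate 2, so that guide and replicate cannot be told apart. Each promoter was counted once per library. The p-values and intervals rest on the spread between these 4 libraries. The edgeR test estimates that spread largely from all promoters together and little from each promoter alone.

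The OXPHOS system sits in the inner mitochondrial membrane. Complexes I and II pass electrons from NADH and succinate to ubiquinone, complex III passes them on to cytochrome c, complex IV reduces oxygen, and complex V, the ATP synthase, uses the resulting proton gradient to make ATP. Complex II is built from nuclear genes alone, and the other complexes combine nuclear-encoded subunits with subunits made from mitochondrial DNA. Promoters of the nuclear genes are known for sites of the factors NRF1, GABPA, an ETS family protein, and YY1, beside the Sp1 sites of many housekeeping genes.

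The 100 bases before the start of transcription are shown for the promoters on which the comparison turned, and for COX5B and ATP5F1C as examples of the ETS and NRF1 letters. They are RefSeq sequences on GRCh38.p14, a different build from the CHM13 assembly to which the counts refer, and are written 5′ to 3′ on the strand of the gene. Capitals mark exact matches, on either strand, to motif letters that are spelled out after the sequences. NDUFA1 is from chrX:119871732-119871831 (plus strand), NDUFB10 from chr16:1959438-1959537 (plus strand), COX8A from chr11:63974520-63974619 (plus strand), NDUFB6 from chr9:32573160-32573259 (minus strand), COX7C from chr5:86617841-86617940 (plus strand), COX5B from chr2:97645962-97646061 (plus strand) and ATP5F1C from chr10:7788077-7788176 (plus strand). ATP5PF has 2 listed starts, with bases from chr21:25735055-25735154 (minus strand) and chr21:25734905-25735004 (minus strand).
NDUFA1: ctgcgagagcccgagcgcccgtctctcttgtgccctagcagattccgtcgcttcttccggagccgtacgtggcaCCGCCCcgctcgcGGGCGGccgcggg
NDUFB10: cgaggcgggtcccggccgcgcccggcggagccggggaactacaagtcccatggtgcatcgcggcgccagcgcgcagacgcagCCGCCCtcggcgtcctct
COX8A: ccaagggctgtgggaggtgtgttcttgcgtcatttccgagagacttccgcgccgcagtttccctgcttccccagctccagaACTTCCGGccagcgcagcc
NDUFB6: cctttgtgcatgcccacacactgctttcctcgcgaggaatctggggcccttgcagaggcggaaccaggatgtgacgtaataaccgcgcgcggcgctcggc
COX7C: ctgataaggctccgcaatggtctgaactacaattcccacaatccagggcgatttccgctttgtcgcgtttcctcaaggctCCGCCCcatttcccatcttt
ATP5PF, upstream start: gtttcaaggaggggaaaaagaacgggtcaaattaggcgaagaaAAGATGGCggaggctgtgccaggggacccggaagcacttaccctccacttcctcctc
ATP5PF, downstream start: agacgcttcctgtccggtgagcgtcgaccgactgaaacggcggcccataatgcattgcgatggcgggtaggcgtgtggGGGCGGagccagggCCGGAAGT
COX5B: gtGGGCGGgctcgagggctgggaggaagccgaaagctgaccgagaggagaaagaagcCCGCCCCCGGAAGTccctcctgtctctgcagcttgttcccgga
ATP5F1C: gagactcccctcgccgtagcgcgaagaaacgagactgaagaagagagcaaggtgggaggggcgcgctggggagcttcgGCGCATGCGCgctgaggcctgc

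Letters associated with 3 regulators of mitochondrial genes were in a larger share of OXPHOS promoters than of all promoters, a description for which no test was run. RefSeq promoters of 300 bases, from 250 before to 50 after the start, were matched to 71 of the 91 genes and to 19083 tested genes, and a gene with several listed promoters counted once if any held the motif. Both strands were searched for exact letters. The NRF1 letters GCATGCGC were in 14 of 71 OXPHOS genes (19.7%), against 4.48% of all genes and 6.52% of genes above the median abundance. The GABPA/ETS letters CCGGAAGT were in 12 (16.9%), against 6.37% and 9.90%, and the YY1 letters AAGATGGC in 12 (16.9%), against 4.26% and 6.27%. At least 1 of these 3 motifs was in 31 genes (43.7%), compared with 13.8% of all genes and 20.6% of those above median abundance. By complex, they were in 9 of 14 genes of complex V, 4 of 8 of complex III, 13 of 32 of complex I, 2 of 3 of complex II and 3 of 14 of complex IV.

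Other motifs were searched in the same way. The SP/KLF letters GGGCGG were in 63.4% of OXPHOS genes, 59.2% of all genes and 78.6% of those above median abundance, the NF-Y letters CCAAT in 36.6%, 41.0% and 42.7%, and TATAAA in 9.86%, 12.3% and 7.51%. The cyclic AMP response element (CRE) TGACGTCA was in 5 OXPHOS genes (7.04%), against 2.79% and 3.93%. These letters overlap in places: in ATP5F1C a pair of NRF1 matches on opposite strands form GCGCATGCGC, and in COX5B the SP/KLF and ETS letters adjoin. A match is a string of letters and was not measured as a binding site here. The median log2 fold change between MORC2 KO and WT was 0.016 in the 14 genes with NRF1 letters and 0.016 in the 57 without, 0.050 and 0.0011 with and without ETS letters, and −0.063 and 0.027 with and without YY1 letters.

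**Figure D1:**
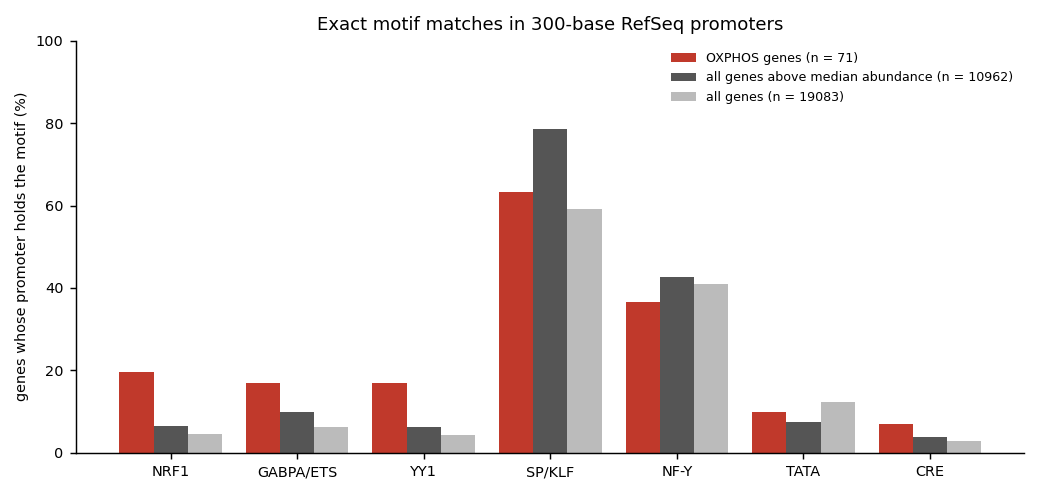
Share of genes (%) whose 300-base RefSeq promoter held each motif, for 71 OXPHOS genes (red), genes above median abundance (dark grey) and all tested genes (light grey). The red bars are the highest for NRF1 (19.7%), GABPA/ETS (16.9%), YY1 (16.9%) and CRE (7.04%), and lie between or below the grey bars for SP/KLF, NF-Y and TATA.

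The libraries held from 9435801 to 15152636 promoter fragments, with KO replicate 2 the deepest. Mitochondrial rows took 20.6% of its count and from 31.8% to 35.1% of the others. Across all promoters, 4.45% were called at an adjusted p under 0.05 in edgeR's quasi-likelihood test, 3.45% higher and 0.995% lower in MORC2 KO. This share depended on the libraries and the scaling, and was 0.148% without KO replicate 2, 0.827% without WT replicate 2 and 0.0723% with total count scaling. The promoter of MORC2 itself was called higher, by 0.43 on the log2 scale (by edgeR, adjusted p = 0.000279, but 0.0837 without KO replicate 2, 0.240 with total count scaling and 0.363 in the DESeq2 Wald test), which does not measure the edit. Among promoters chosen as open in HEK293-derived cells, LHX1, VIM and NEFL lay above the median abundance and PAX2 and NEFM below it, while all 8 promoters of genes of other tissues, such as ALB, PTPRC and MYH6, lay below it.

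OXPHOS promoters were among the accessible promoters of these cells. Levels are given as CPM, the counts brought to a common library size after TMM scaling. Comparing them between promoters assumes windows of equal length, the 2 kb of the study's promoter definition, since how the table was counted is not given in the sources used here. The median OXPHOS promoter had 32.2 CPM over the 4 libraries, against 16.8 CPM for all tested promoters, and 77 of the 91 lay above the median abundance. The most accessible was ATP5PF, coupling factor 6 in the stalk of the ATP synthase, at 112 CPM, followed by NDUFA11, a membrane subunit of complex I, at 102 CPM. ATP5PF ranged from 103 to 122 CPM over the libraries and NDUFA11 from 93.2 to 109 CPM, so that these neighbours in the order overlap.

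The 14 less accessible promoters were unevenly spread. They comprised 7 of 17 in complex IV, 4 of 13 in complex III (UQCRBP1, UQCRHL, UQCRFS1 and UQCRFS1-DT), NDUFA5 and NDUFS4 of complex I, ATP5MGL of complex V and none of complex II. UQCRFS1, the Rieske iron-sulphur protein, and NDUFS4 were close to the median, at the 49.4th and 47.9th percentiles. NDUFA5, an accessory subunit of the matrix arm, was far lower than the rest of complex I, at 1.76 CPM, with 11 and 26 fragments in KO and 23 and 19 in WT. The neighbouring row of ASB15 was about as low, with 10 and 30 fragments in KO and 24 and 19 in WT. Whether the window counted for NDUFA5 holds the promoter in use was not tested. The highest promoters of the other complexes were SDHC, a membrane anchor of complex II, at 42.4 CPM, UQCRH, the hinge protein of complex III, at 60.7 CPM, and COX8A, a small subunit of complex IV, at 57.4 CPM.

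Tissue-restricted isoforms of complex IV had low promoters next to their ubiquitous partners, with some exceptions. COX8C, a testis isoform, had 4.68% of the level of COX8A, with a range of 3.31% to 5.35% over the libraries. COX6A2, the heart and muscle isoform, had 5.77% of COX6A1 (4.64% to 8.33%), and COX7B2 had 6.51% of COX7B (5.35% to 8.24%). COX4I2, the lung isoform linked to hypoxia, had 20.7% of COX4I1 (16.5% to 23.7%). COX6B2, another testis isoform, reached 65.6% of COX6B1 (60.3% to 74.0%), at 20.4 CPM. The muscle isoform COX7A1 was at 141% of COX7A2 (118% to 180%), since the row of the ubiquitous COX7A2 was itself low, at 3.61 CPM. Such levels describe the window counted for each gene and not its transcription.

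**Figure D2:**
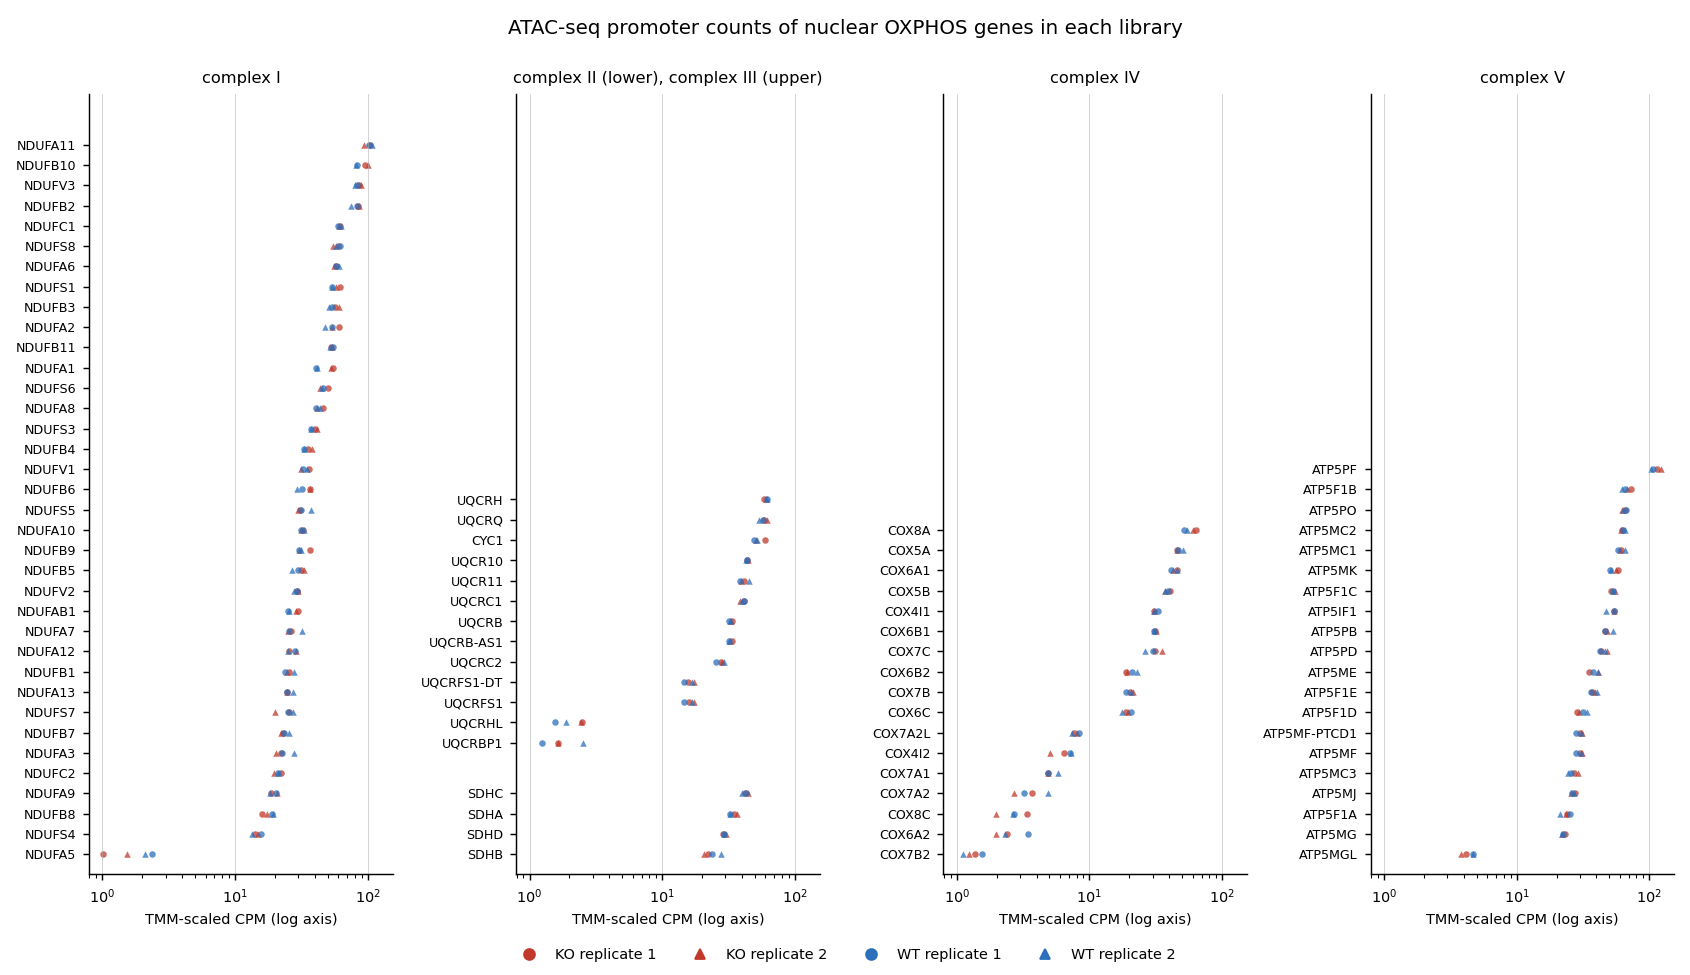
TMM-scaled CPM (log axis) of 90 of the 91 promoters in KO replicates 1 and 2 (red) and WT replicates 1 and 2 (blue), ordered by mean within each complex. Most promoters lie between 10 and 112 CPM with the 4 libraries close together, and the low tail is NDUFA5, UQCRHL, UQCRBP1, ATP5MGL and 7 promoters of complex IV.

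Few OXPHOS promoters differed between MORC2 KO and WT. Promoters called at an adjusted p under 0.05 in edgeR's quasi-likelihood test numbered 3 of 91, all higher in KO: NDUFA1, NDUFB10 and COX8A. This is 3.30% of OXPHOS promoters, compared with 4.45% of all promoters called and 3.45% called higher. None was called lower by edgeR, limma-trend or DESeq2 (6 were lower at an unadjusted p under 0.05 in edgeR), against 0.995% of all promoters. At that unadjusted level there were 18 in all, or 19.8%, of which 12 were higher, against 20.3% of all promoters. At 25 promoters the KO libraries both exceeded the WT libraries (27.5%, against 25.2% of all), and they were both below them at 17 (18.7%, against 25.4%). Among promoters above the median abundance the latter comparison turned, with 16.9% of OXPHOS promoters against 11.3% of all.

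The shifts were also small in size. The median log2 fold change was 0.022 for OXPHOS promoters, with 51 of 91 above 0, and −0.017 for all promoters. The median absolute log2 difference was 0.080 between KO and WT, next to 0.072 within the KO pair and 0.093 within the WT pair. The first is a difference between means of 2 libraries and the others are differences between single libraries, so that they are not on equal terms. The 95% interval of the log2 fold change lay within ±0.5 for 80 of 91 (87.9%), compared with 60.5% of all promoters, and the median interval reached 0.17 to either side. Above the median abundance this share was 98.7% of OXPHOS promoters and 98.2% of all, and below it 28.6% and 22.9%. It was thus near that of other promoters of like abundance. For these 80 the intervals of this fit leave out changes over 0.5 on the log2 scale, and changes smaller than the interval could not be detected at this depth. This need not hold in other fits. With total count scaling the standard error of ATP5PF was 0.16, against 0.062 here, and its log2 fold change 0.31, against 0.18.

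NDUFA1, a small membrane subunit of complex I encoded on the X chromosome, had the smallest adjusted p. KO replicates 1 and 2 had counts of 593 and 900, against 390 and 376 for WT, or 54.4 and 52.8 CPM against 40.5 and 41.6 CPM. The genotypes did not overlap, and replicates of a genotype differed by far less than the genotypes did. The log2 fold change was 0.38 (SE 0.074, adjusted p = 0.000161 by edgeR's quasi-likelihood test), a 1.30-fold rise. The neighbouring gene RNF113A, a component of the spliceosome, held nearly the same counts, 568, 848, 367 and 357 in the same order. It rose by 0.39 on the log2 scale (adjusted p = 0.000164 by edgeR), and the rise cannot be assigned to either gene.

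NDUFB10, a subunit of the complex I membrane arm, held 1037 and 1702 fragments in KO and 802 and 739 in WT. This corresponded to 95.1 and 99.8 CPM in KO and 83.3 and 81.8 CPM in WT, with no overlap between genotypes. Its log2 fold change was 0.24 (SE 0.064, adjusted p = 0.0104 by edgeR). Its closest neighbour in counts, RPS2, differed from it by up to 50.6% in a library and had a log2 fold change of −0.10.

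COX8A, which was just inside the threshold, held 692 and 1027 fragments in KO and 500 and 488 in WT. The KO libraries, at 63.5 and 60.2 CPM, lay above the WT libraries, at 51.9 and 54.0 CPM. The log2 fold change was 0.22 (SE 0.070, adjusted p = 0.0438 by edgeR). It was not called in the edgeR 4 fit (0.0600), in limma-trend (0.0670) or with a mean count of at least 50 (0.0993). With 1 library left out, a genotype has a single library, which is assumed to vary like the pair of the other genotype. COX8A was not called in any of these 4 fits, with adjusted p-values from 0.111 to 0.210. NDUFB10 was no longer called without KO replicate 2 (adjusted p = 0.289 by edgeR) or without WT replicate 2 (0.0880), and NDUFA1 was called in all 4 (0.00331 to 0.0295).

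Just outside the threshold, another 3 promoters were higher in KO. NDUFB6, also of the membrane arm, had 36.7 and 36.7 CPM in KO and 32.2 and 29.2 CPM in WT, a log2 difference of 0.25 (adjusted p = 0.0547 by edgeR). COX7C, a small subunit of complex IV, had 31.5 and 35.3 CPM in KO and 30.0 and 26.0 CPM in WT, a log2 difference of 0.26 (adjusted p = 0.0579 by edgeR). ATP5PF had 115 and 122 CPM in KO and 106 and 103 CPM in WT, a log2 difference of 0.18 (adjusted p = 0.0619 by edgeR). In each the KO libraries lay above the WT libraries, by the least in COX7C. COX7C passed the threshold without KO replicate 1 (adjusted p = 0.0404 by edgeR) or without WT replicate 1 (0.0185), and NDUFB6 without WT replicate 1 (0.0340). The neighbour of ATP5PF is GABPA, the gene of the ETS factor named above, which shares its fragments to within 1.90% in every library. The log2 fold change of GABPA was 0.18 (adjusted p = 0.0745 by edgeR).

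The lowest fold changes belonged to promoters with few fragments. The log2 fold change of NDUFA5 was −0.76 (95% interval −1.42 to −0.10, adjusted p = 0.172 by edgeR), with KO libraries at 1.01 and 1.53 CPM and WT libraries at 2.39 and 2.10 CPM. COX6A2, COX7A2 and COX4I2 followed at −0.43, −0.38 and −0.37, none past the threshold, with adjusted p-values of 0.397, 0.374 and 0.247 by edgeR. NDUFA3, an accessory subunit, had more fragments and a value of −0.26 (adjusted p = 0.106 by edgeR), with 22.3 and 20.3 CPM in KO against 22.7 and 28.0 CPM in WT, and passed the threshold without WT replicate 1 (0.0165). The highest value was also at a low promoter, UQCRHL, a hinge-protein copy, at 0.52 (95% interval −0.10 to 1.14, adjusted p = 0.337 by edgeR) with 27 and 42 fragments in KO and 15 and 17 in WT. UQCRHL is a close copy of UQCRH, and reads that match both equally well would fail the authors' filter on mapping quality, so that its value is uncertain.

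**Figure D3:**
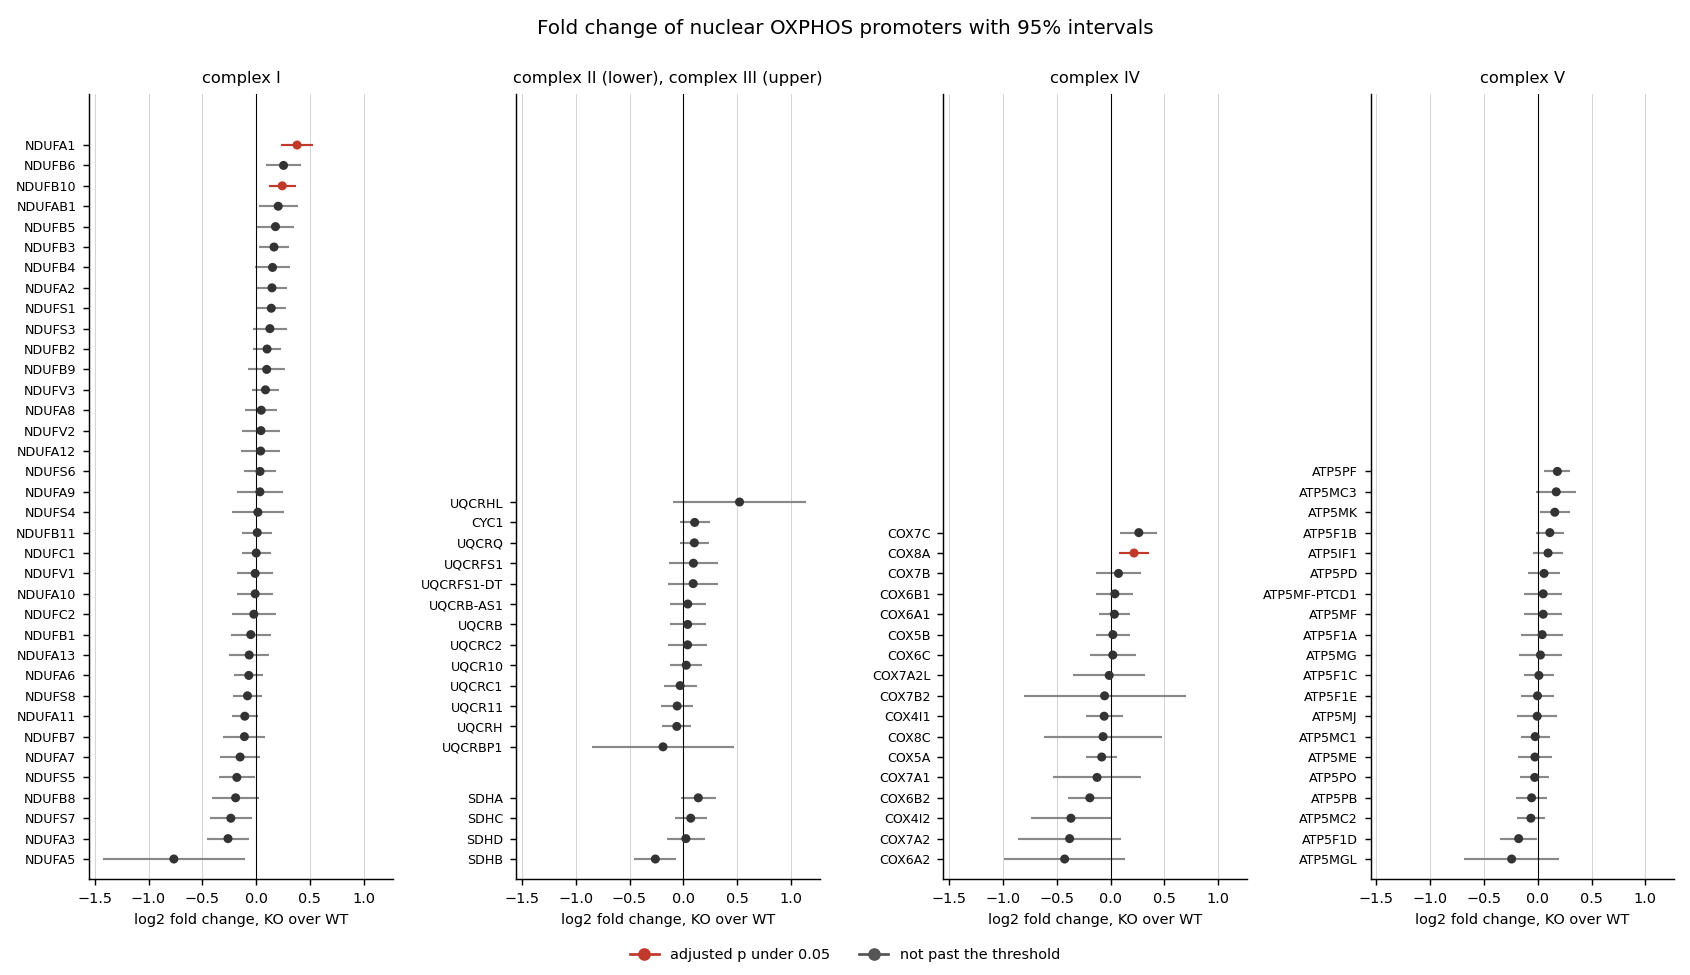
Log2 fold change of MORC2 KO over WT for 90 of the 91 promoters (points) with its 95% interval (lines), ordered within each complex. Called promoters (adjusted p under 0.05) are red: NDUFA1 at 0.38, NDUFB10 at 0.24 and COX8A at 0.22. The widest intervals are at promoters with few fragments.

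Fold change moved with abundance across the whole table, and OXPHOS promoters lay mostly at the accessible end. When tested promoters were cut into 10 classes of equal size by abundance, their median log2 fold change went from −0.29 in the lowest class to 0.083 in the highest. In the 2 highest classes, 3 of 27 OXPHOS promoters were called higher (11.1%), compared with 9.78% of all promoters there. Above the median abundance, 3 of 77 were called higher (3.90%, against 6.63% of all), and both KO libraries exceeded the WT libraries at 31.2%, against 42.8% of all. There the median log2 fold change was 0.035 for the 77 OXPHOS promoters and 0.064 for all promoters, and below it −0.098 for the 14 OXPHOS promoters and −0.19 for all. The higher median of OXPHOS promoters over the whole table was therefore not seen among promoters above the median abundance. With loess offsets, which take out the trend with abundance, the OXPHOS median was −0.014 against 0.0011 for all promoters. NDUFA1 remained called there (log2 fold change 0.31, adjusted p = 0.00532 by edgeR), NDUFB10 (0.16, 0.155) and COX8A (0.14, 0.327) did not, and NDUFA11, chosen for mention after its values were seen, was called lower (−0.19, 0.0393).

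**Figure D4:**
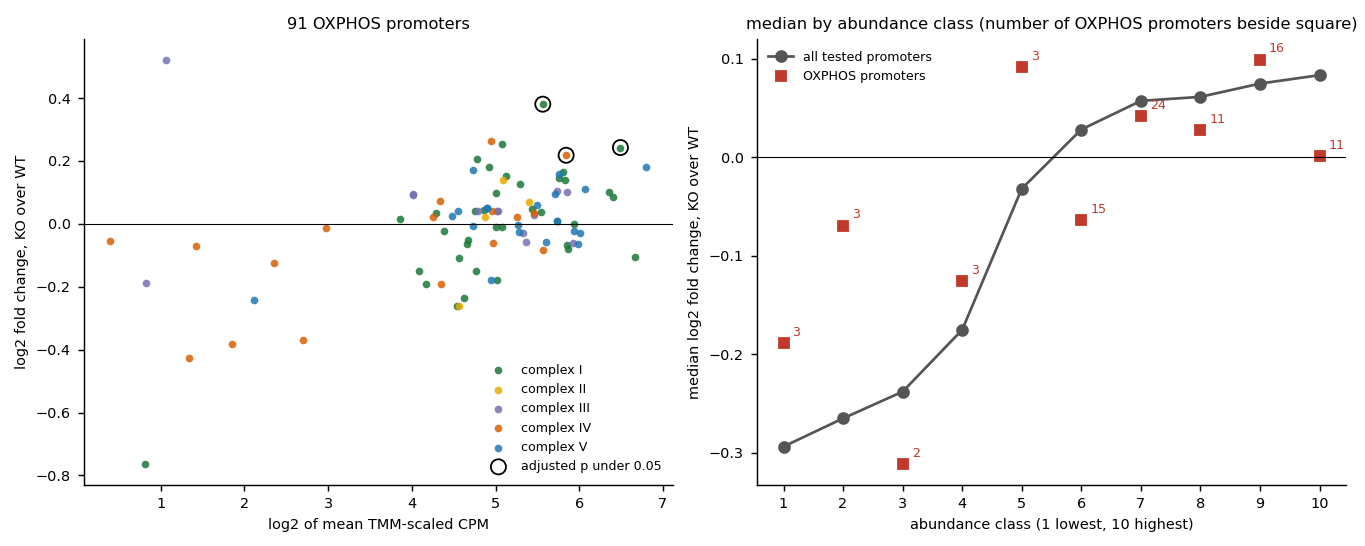
Left, log2 fold change of MORC2 KO over WT against the log2 of mean CPM for 91 OXPHOS promoters, coloured by complex, with the 3 called promoters circled. Right, median log2 fold change in 10 abundance classes for all tested promoters (grey line, from −0.29 to 0.083) and for OXPHOS promoters (red squares, their number beside each).

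The medians of the 5 complexes lay between −0.056 and 0.046, and the differences between complexes were not tested. The median log2 fold change was 0.016 in complex I (interquartile range −0.080 to 0.13), 0.046 in complex II (−0.047 to 0.086), 0.040 in complex III (−0.030 to 0.094), −0.056 in complex IV (−0.13 to 0.036) and 0.018 in complex V (−0.027 to 0.068). Complex IV was the lowest, and its 7 promoters under the median abundance had a median of −0.13 where its 10 others had 0.029. The medians of promoters above the median abundance were 0.035 in complex I, 0.046 in II, 0.039 in III, 0.029 in IV and 0.025 in V. Summed over the protein-coding members, the KO to WT ratio of CPM was 1.03 in complex I, 1.01 in II, 1.02 in III, 1.02 in IV and 1.03 in V.

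In each library these sums were close. Complex I summed to 1530 and 1492 CPM in KO and 1459 and 1465 CPM in WT. Complex V summed to 867 and 881 CPM in KO and 846 and 857 CPM in WT. Complex II, at 128 and 132 CPM in KO and 128 and 129 CPM in WT, and complex III, at 384 and 376 CPM against 367 and 377 CPM, overlapped between genotypes. Complex IV summed to 376 and 371 CPM in KO and 364 and 368 CPM in WT. In complexes I, IV and V the KO sums thus exceeded the WT sums. This order was seen at 25.2% of all single promoters and at 42.8% of those above the median abundance. Those are shares of single promoters and not of sums over many, so that they give no background rate for the sums. Sums of other sets of nuclear promoters were not compared. An exact permutation test of 2 against 2 cannot test this order below a two-sided p of 0.333.

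Complex I had the largest share of promoters at an unadjusted p under 0.05 in edgeR. It had 12 of 37 (32.4%, against 20.3% of all promoters), 8 higher and 4 lower. The others had 1 of 4 in complex II, 0 of 13 in complex III, 2 of 17 in complex IV and 3 of 20 in complex V. Above the median abundance the share was 31.4% in complex I, against 24.6% of all promoters. The number depended on the test: limma-trend also gave 12 in complex I, but the DESeq2 Wald test gave 3, with 0 lower. Members with opposite signs included NDUFAB1, the mitochondrial acyl carrier protein, at 0.21, and NDUFS7, a core iron-sulphur subunit, at −0.24, whose adjusted p-values were 0.186 and 0.147 by edgeR. The nuclear core subunits include those that carry the flavin and the iron-sulphur clusters. Among core subunits the log2 fold changes ran from −0.24 in NDUFS7 through −0.080 in NDUFS8, −0.0088 in NDUFV1, 0.045 in NDUFV2 and 0.13 in NDUFS3 to 0.14 in NDUFS1, and none of these was called.

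Complex II, succinate dehydrogenase, had no promoter called by edgeR, limma-trend or DESeq2. SDHB, the iron-sulphur subunit, had the lowest log2 fold change, −0.26 (95% interval −0.46 to −0.065, adjusted p = 0.106 by edgeR, and 0.0352 without WT replicate 1). It had 22.3 and 20.7 CPM in KO and 23.7 and 27.6 CPM in WT, and the KO values were the lower. The flavoprotein SDHA, at 0.14, had 34.6 and 36.8 CPM in KO and 32.7 and 32.5 CPM in WT and lay on the other side. The membrane anchors SDHC and SDHD, at 0.069 and 0.023, overlapped between genotypes.

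In complexes III and V no promoter was called by edgeR, limma-trend or DESeq2, with 0 and 3 at an unadjusted p under 0.05 in edgeR. Of the complex III catalytic subunits, CYC1, cytochrome c1, had a log2 fold change of 0.11 and UQCRFS1 of 0.094, and the core proteins UQCRC1 and UQCRC2 had −0.030 and 0.039. In complex V the F1 subunits ATP5F1A to ATP5F1E were at 0.041, 0.11, 0.011, −0.18 and −0.0026. ATP5IF1, the inhibitor of the ATP synthase, was at 0.096, and the genes of the c-ring, ATP5MC1, ATP5MC2 and ATP5MC3, were at −0.024, −0.064 and 0.17. The 6 tissue-restricted isoforms of complex IV had values from −0.43 to −0.056, none past the threshold, in the abundance range where the median of all promoters was also below 0, except COX6B2 (−0.19), which lay above the median abundance.

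Many OXPHOS promoters could not be told apart from a neighbouring gene. A row was counted as shared when a gene within 2 places along the chromosome had counts within 10% of it in every library. This held for 41 of 91 OXPHOS promoters (45.1%), compared with 22.5% of all tested promoters and 38.7% of those above the median abundance. With the planned limit of 25%, 57 OXPHOS promoters were shared (62.6%), against 44.7% of all and 64.2% of those above the median abundance. Of OXPHOS promoters above the median abundance, 50.6% were shared within 10% and 68.8% within 25%. By complex the 10% limit held for 21 of 37 in complex I, 2 of 4 in II, 7 of 13 in III, 1 of 17 in IV and 10 of 20 in V. The partners included other mitochondrial genes, such as MRPL47 next to NDUFB5 and MRPL36 next to NDUFS6, both of the mitochondrial ribosome, and TIMM8B, a protein import factor, next to SDHD. Others were NDUFA11 with VMAC, NDUFS3 with KBTBD4, UQCRQ with GDF9 and ATP5F1A with HAUS1. ATP5MF and its readthrough row had identical counts. The single shared row of complex IV was COX4I1 with EMC8. Among the 50 promoters not shared within 10% the median log2 fold change was −0.011, and NDUFB10 and COX8A were the 2 called.

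Few promoters of genes that assemble or regulate the complexes were called. Of 56 assembly factors, 3 were called, all higher: NDUFAF2, at 0.25 (adjusted p = 0.0189 by edgeR), and TMEM126B, at 0.24 (0.0172), both complex I assembly factors, and CMC1, at 0.26 (0.0116), which acts on complex IV. Of 18 regulators of mitochondrial genes and DNA, POLG2, the accessory subunit of the mitochondrial DNA polymerase, was called, at 0.42 (9.09e-06). It had 57.2 and 58.4 CPM in KO and 44.7 and 41.8 CPM in WT. POLG2 was called with any 1 library left out, again with the spread of the lone library assumed, but not with total count scaling (adjusted p = 0.233 by edgeR) or in the DESeq2 Wald test (0.122). None of the other 3 was called without KO replicate 2 or without WT replicate 2, nor NDUFAF2 and TMEM126B without KO replicate 1. The called promoters were 4 of 74, or 5.41%, against 4.45% of all promoters and 7.19% of those above the median abundance, where all 74 lay. There 6.63% of all promoters were called higher in KO, so that the direction of these 4 was the usual one. The median log2 fold change was 0.061 in assembly factors and 0.049 in regulators. The promoters of NRF1, YY1 and TFAM, at 0.046, −0.085 and 0.072, were not called, nor was that of CYCS, cytochrome c, at 0.068 (adjusted p = 0.591 by edgeR).

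Rows of the 13 OXPHOS subunits encoded in mitochondrial DNA behaved unlike the nuclear ones. Their summed CPM was 147934 in KO replicate 1, 82199 in KO replicate 2, 162365 in WT replicate 1 and 165701 in WT replicate 2. KO replicate 2 stood apart, and KO replicate 1 was near the WT libraries. In all 13 both KO libraries were below both WT libraries, against 25.4% of all promoters, but the windows overlap on a small circular genome and are not independent. The median log2 fold change was −0.51, with 0 of 13 called, and 0 at an unadjusted p under 0.05, by edgeR, limma-trend and DESeq2. These sums moved with the mitochondrial share of each library, and what set that share was not tested. When all 37 mitochondrial rows were left out before scaling, the nuclear OXPHOS median was 0.021 and 4 promoters were called, in a fit that called 4.50% of all promoters, the fourth being ATP5PF (adjusted p = 0.0460 by edgeR).

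The median of OXPHOS promoters stayed close to that of all promoters under every scaling and test tried. Scaling by total count alone moved the median of all promoters to 0.12 and that of OXPHOS promoters to 0.16, and no OXPHOS promoter was called. The difference between both medians was 0.038 with TMM, 0.037 with total count, −0.015 with loess offsets and −0.0044 with a mean count of at least 50. NDUFA1 was higher in KO in each of the 15 other fits and was called in 13 of them, all but total count scaling (adjusted p = 0.304 by edgeR) and the DESeq2 Wald test (0.277).

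**Figure D5:**
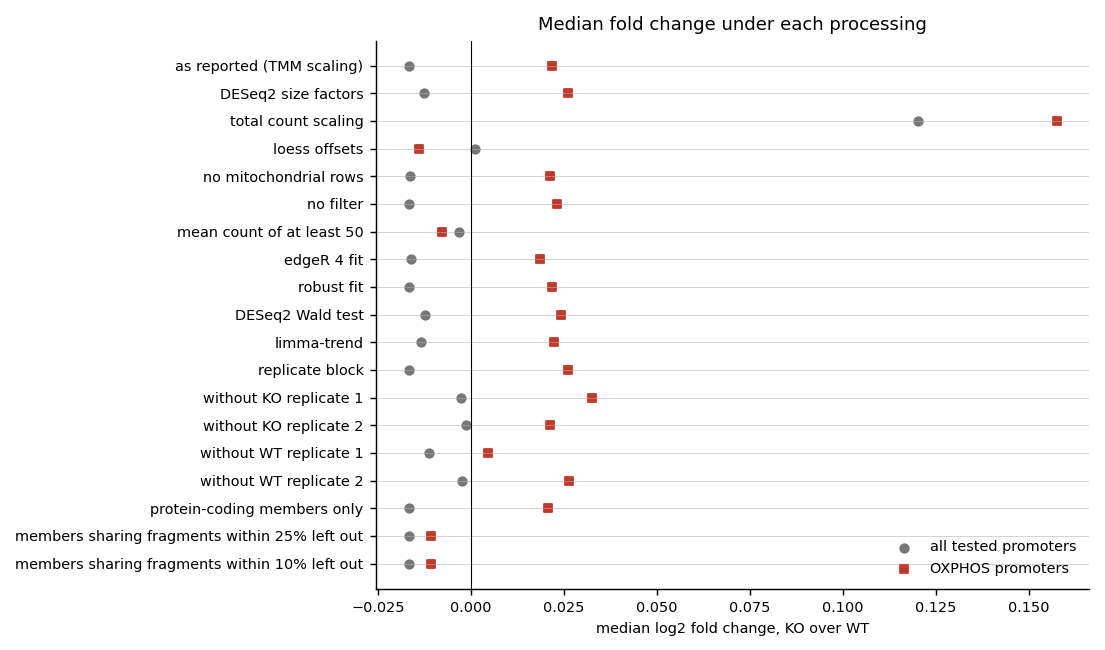
Median log2 fold change of MORC2 KO over WT for OXPHOS promoters (red squares) and all tested promoters (grey circles) under each way of processing. Both medians move together to 0.16 and 0.12 with total count scaling, and the OXPHOS median falls below 0 with loess offsets, with a mean count of at least 50, and when promoters that share fragments with a neighbour are left out.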

How the data were processed

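ATAC-seq libraries came from HEK293T cells, 2 of them MORC2 KO and 2 WT. The authors trimmed paired-end reads, aligned them to the CHM13 assembly with bowtie2, kept properly paired reads of high mapping quality and removed duplicates with Picard. The submitters' processing notes also name featureCounts of Subread 2.0.6. The deposited promoter table holds raw counts of fragments per NCBI Gene ID, without normalisation. The study defines a promoter as a 2 kb window, and how this table was counted is not given in the sources used here. The deposited WT peak list was not used here, since it carries no replicates and placing peaks at genes needs gene positions on CHM13.

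Gene IDs were matched to RefSeq symbols for 28763 of 28775 rows. Rows were filtered with filterByExpr (1128 removed), scaled by TMM and tested with the legacy quasi-likelihood fit of edgeR 4.0.16 (R 4.3.3), genotype being the only term, with two-sided p-values adjusted by Benjamini-Hochberg. Standard errors were derived from the F statistics, and the test was checked on simulated data. Those data had the same dispersion at every promoter and no trend of fold change with abundance. The check therefore does not cover the trend seen in these libraries. Alternatives covered scaling (DESeq2 1.42.0 size factors, total count, loess offsets), mitochondrial rows, filters, the edgeR 4 and robust fits, the DESeq2 Wald test, limma-trend (limma 3.58.1, prior count of 2), a replicate block, the threshold, shared and non-coding rows, and leaving out each library. The 10% limit on shared rows was added after seeing the data.

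Members, lists and motifs were chosen with earlier results of these data known. Promoters were named if called, among the 5 highest or 5 lowest fold changes, highest or lowest in level within a complex, an SDH gene, a tissue-restricted isoform or its partner, or next to the threshold, together with MORC2 and called genes of the other lists. Other core and catalytic subunits, regulators and neighbours were added after their values were seen. Single values of some listed promoters are not reported here.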

Additional observations from a re-analysis of the deposited data

How the results depend on the processing

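Against 3 OXPHOS promoters called, total count scaling and the DESeq2 Wald test each gave 0 (7 and 5 at an unadjusted p under 0.05), where 0.0723% and 0.0253% of all promoters were called. A threshold of 0.1 gave 6 and one of 0.01 gave 1, with 8.13% and 1.28% of all promoters called. Leaving out 1 library gave 1 to 7: 3 without KO replicate 1, 1 without KO replicate 2 or WT replicate 2, and 7 without WT replicate 1, of which NDUFS5, SDHB and NDUFA3 were lower. The share of all promoters called was 3.10% without KO replicate 1, 0.148% without KO replicate 2, 5.89% without WT replicate 1, 0.827% without WT replicate 2 and 1.37% with loess offsets, against 4.45% with all libraries and TMM. The edgeR 4 fit, limma-trend and the mean count of at least 50 each gave 2 OXPHOS promoters, COX8A being lost. In the lists of related genes 4 promoters were called, 0 with total count scaling, 0 with the DESeq2 Wald test, 2 with loess offsets, and 1 to 7 with a library left out. Same-numbered libraries did not deviate together over all promoters (correlation −0.00027), and whether they shared a batch was not tested. With the replicate number as a block, 2 OXPHOS promoters were called, COX8A being lost (adjusted p = 0.0841 by edgeR), and the median of complex IV was −0.019. The block changed no other call among the named promoters.

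The median log2 fold change of OXPHOS promoters, 0.022, became 0.16 with total count scaling, −0.014 with loess offsets, −0.0078 with a mean count of at least 50, −0.011 without rows shared within 25% or within 10%, and 0.0045 to 0.033 with a library left out. With total count scaling complexes I to V had medians of 0.15, 0.18, 0.18, 0.089 and 0.15. With loess offsets complexes I to IV had −0.030, −0.011, −0.0076 and −0.013. With a mean count of at least 50, complex I had −0.0093 and complex IV −0.014. Complex IV had −0.029 in the edgeR 4 fit, −0.014 in the DESeq2 Wald test and −0.015 in limma-trend. With a library left out, complex I ranged from 0.0039 to 0.045, II from 0.012 to 0.093, III from −0.00022 to 0.056, IV from −0.062 to −0.0092 and V from −0.0047 to 0.062. The cause was not tested.

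Directions turned only at promoters that were not called. With total count scaling COX4I1 was at 0.077, COX7A1 at 0.016, COX7B2 at 0.089, COX8C at 0.078, NDUFA11 at 0.028 and UQCRH at 0.072. With loess offsets COX6A1 was at −0.029, COX6B1 at −0.013, COX7A1 at 0.068, COX7B2 at 0.26, COX8C at 0.20, SDHD at −0.027 and UQCRBP1 at 0.11, and SDHD was at −0.012 with a mean count of at least 50. With a library left out COX6A1 ranged from −0.036 to 0.11, COX7B2 from −0.27 to 0.22, COX8C from −0.41 to 0.35, SDHD from −0.0092 to 0.070 and UQCRBP1 from −0.63 to 0.40. Promoters with few fragments, such as NDUFA5, UQCRHL, COX7B2 and COX8C, had intervals too wide to show a change of 0.5 on the log2 scale, and with 2 libraries a genotype none of these values has further replication.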
